A study of Anas platyrhynchos with 16 samples.

Results

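NFAT5 and a small set of osmotic balance genes were examined in the hypothalamus and pituitary of ducks kept in cages or on floor with water. The set names 5 genes: the transcription factor NFAT5, the organic osmolyte transporters SLC5A3 and SLC6A6, the aldose reductase AKR1B1 and the water channel AQP1. They were looked up by gene name in a table of 24263 genes. There were 4 present under their own names, with the gene identifiers 101800130 (NFAT5), 101800553 (SLC5A3), 101798943 (SLC6A6) and 101799723 (AQP1). AKR1B1 was not listed under that name, and loci whose deposited description names an aldose reductase or a related aldo-keto reductase were described in its place. The set was chosen by the level of NFAT5 in FPKM, which was higher in caged than in floor-water pituitary, so all values of the set in the pituitary housing comparison are given as a description, with no test.

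The birds were Shanma ducks (Anas platyrhynchos), 113 days old at sampling. At 110 days, 3 days before, 15 of them had been moved into 3 cages and given 16 h of light a day, while 15 stayed in a floor-water system under natural light. Light regimen and housing therefore cannot be told apart. RNA was sequenced from caged pituitary, floor-water pituitary, caged hypothalamus and floor-water hypothalamus, with 4 libraries in each group and 16 in all. Neither the bird nor the cage behind a library is named in the labels. The p-values accordingly reflect how far these particular libraries varied, and that variation could be technical.

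NFAT5 is the tonicity-responsive member of the NFAT and Rel family of transcription factors. In mammalian cells exposed to high salt it enters the nucleus and raises genes that load the cell with compatible organic osmolytes: SLC5A3 imports myo-inositol, SLC6A6 imports taurine, and aldose reductase makes sorbitol from glucose. AQP1 lets water cross the membranes of endothelial and some epithelial cells. The hypothalamus senses plasma osmolality and makes vasotocin, the avian antidiuretic hormone, which is released from the posterior lobe of the pituitary.

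Library totals were 38853215 to 67175356 counts over the 16 libraries. The tissues carried their own markers: 9 pituitary hormone cell markers summed to 137774 to 202391 FPKM in the pituitary libraries, and 7 neuronal markers summed to 2486 to 3809 FPKM in the hypothalamus libraries, against 215 to 442 FPKM in pituitary. FPKM counts sequenced fragments scaled by transcript length and by library size. Several libraries stood apart. Floor-water pituitary 1 and 2 had summed fibroblast and mural cell markers (6 genes) of 319 and 324 FPKM, against 72.0 to 116 in the other floor-water pituitary libraries. Caged hypothalamus 2 had 20561 FPKM of choroid plexus and ependymal markers (8 genes), against 35.9 to 689 in the other caged hypothalamus libraries, and caged hypothalamus 4 had 29785 FPKM of pituitary hormone cell markers, against 59.3 to 7135 in the others of its group. Caged pituitary 2 and floor-water pituitary 4 had 207 and 216 FPKM of oligodendrocyte markers (3 genes), and floor-water pituitary 2 had 87.0. The other pituitary libraries had 10.3 to 27.1 FPKM of them. No marker found was at 0 in all libraries of a group. In bulk tissue, fewer cells of a type and less RNA per cell cannot be told apart.

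NFAT5 was highest in caged pituitary. It had 14.4, 9.24, 13.9 and 11.8 FPKM in caged pituitary libraries 1 to 4, against 3.18, 2.81, 6.72 and 2.73 FPKM in floor-water pituitary libraries 1 to 4. All 4 caged libraries lay above all 4 floor-water libraries, and floor-water pituitary 3 was the highest of its group. The means were 12.4 ± 2.36 FPKM in caged pituitary and 3.86 ± 1.92 FPKM in floor-water pituitary (SD, n = 4 each). The fitted log2 fold change of caged over floor-water pituitary was 1.67 ± 0.37 (SE), a 3.19-fold difference. This is the contrast that chose the gene, and it has no test here. The authors' deposited table gives a fold of 3.20 for it. For reading this value, 1.34% of the 15582 genes fitted in that contrast had all caged libraries above all floor-water libraries. Without floor-water pituitary 3 the log2 fold change was 2.26, and without floor-water pituitary 1 and 2 it was 1.25.

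In the hypothalamus, which the choice of genes did not use, NFAT5 had 2.0, 6.58, 5.29 and 9.76 FPKM in caged libraries 1 to 4, against 3.01, 3.05, 2.70 and 2.90 FPKM in floor-water libraries 1 to 4. Caged libraries 2 to 4 were above every floor-water library, and caged library 1 was below them all. The means were 5.91 ± 3.21 FPKM in caged hypothalamus and 2.92 ± 0.156 FPKM in floor-water hypothalamus (SD, n = 4 each), so the caged group carried almost all of the spread. The log2 fold change was 0.97 ± 0.38 (SE), with an unadjusted p of 0.0294 and an edgeR adjusted p of 0.49 over 15736 genes, which did not pass the threshold of 0.05. In this contrast edgeR called 0 genes, or 0% of those tested. At an unadjusted p under 0.05 there were 1463 genes (9.3%), and DESeq2 called 234 (1.49%), without NFAT5 among them. The authors' deposited table gives a fold of 2.03, a p-value of 0.00315 and a q-value of 0.164.

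The NFAT5 value in hypothalamus depended on single caged libraries. Leaving out 1 library at a time gave log2 fold changes of 0.62 to 1.26, the lowest without caged hypothalamus 4. Without caged hypothalamus 2 and 4, which stood apart by their markers, it was 0.24. Caged hypothalamus 4 had both the highest NFAT5 level and the highest pituitary marker sum of the hypothalamus libraries. Caged hypothalamus 2 had the second highest NFAT5 level, 6.58 FPKM, with the lowest pituitary marker sum, 59.3 FPKM. The pituitary marker sums of caged hypothalamus 1 and 3 were 5324 and 7135 FPKM. In floor-water hypothalamus libraries 1 to 4 they were 1950, 90.2, 321 and 481 FPKM. All caged hypothalamus libraries but library 2 thus lay above every floor-water library in this sum. With the marker sum of the other tissue as a covariate, the log2 fold change was 0.94. The part of pituitary RNA in the NFAT5 value was not tested. Whether NFAT5 differed between housing groups by a different amount in the pituitary and in the hypothalamus was not tested.

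Between tissues, NFAT5 had a log2 fold change of pituitary over hypothalamus of 1.41 ± 0.41 in caged ducks (2.65-fold). The tissue comparisons share pituitary libraries with the comparison that chose the gene, so for NFAT5 they too are given as a description, with no test. Of the 15854 genes tested between tissues in caged ducks, 54.1% were called, and 27.3% of the genes tested were called higher in pituitary. On counts scaled by edgeR the 2 groups did not overlap, as for 25.7% of all genes that were higher in every pituitary library. In FPKM they did, since caged hypothalamus 4 (9.76 FPKM) lay above caged pituitary 2 (9.24 FPKM). In floor-water ducks the log2 fold change of pituitary over hypothalamus was 0.70 ± 0.36, in a comparison where 56.3% of 15878 genes were called. It was 0.12 without floor-water pituitary 3, and 1.09 without floor-water pituitary 1 and 2. The group means ran in the order caged pituitary, caged hypothalamus, floor-water pituitary, floor-water hypothalamus, and the library ranges of each neighbouring pair in that order overlapped in FPKM.

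**Figure D1:**
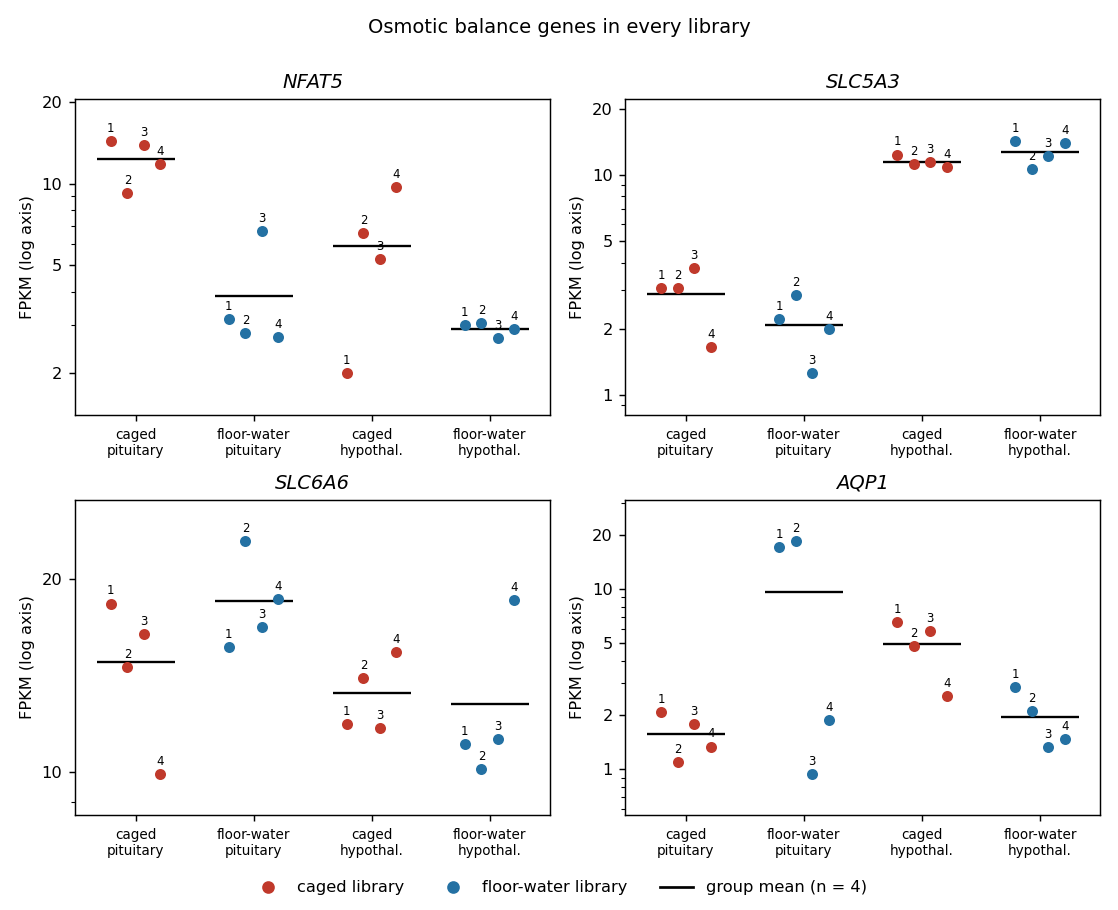
FPKM (log axis) of NFAT5, SLC5A3, SLC6A6 and AQP1 in each of the 16 libraries, with the library number beside each point and the group mean as a line (n = 4). The 4 caged pituitary libraries sit at 9.24 to 14.4 FPKM of NFAT5, above the floor-water pituitary libraries at 2.73 to 6.72 FPKM, and AQP1 splits the floor-water pituitary libraries into 17.2 and 18.4 FPKM against 0.947 and 1.88 FPKM.

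SLC5A3, the sodium and myo-inositol cotransporter, was higher in hypothalamus than in pituitary. It had 3.07, 3.05, 3.77 and 1.65 FPKM in caged pituitary and 2.21, 2.86, 1.26 and 1.99 FPKM in floor-water pituitary, against 12.4, 11.2, 11.5 and 10.9 FPKM in caged hypothalamus and 14.3, 10.7, 12.2 and 14.0 FPKM in floor-water hypothalamus (libraries 1 to 4). All 8 pituitary libraries lay below all 8 hypothalamus libraries. SLC5A3 fell in pituitary relative to hypothalamus, with a log2 fold change of -1.66 ± 0.21 in caged ducks (3.16-fold lower, edgeR adjusted p = 0.00029) and -2.44 ± 0.18 in floor-water ducks (5.42-fold lower, edgeR adjusted p = 9.73e-06). The groups did not overlap in either comparison, as for 27.8% of all genes that were lower in every pituitary library in each. Both calls held in all alternatives run.

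Between housing groups SLC5A3 did not pass the threshold in hypothalamus. The means were 11.5 ± 0.650 FPKM in caged hypothalamus and 12.8 ± 1.66 FPKM in floor-water hypothalamus (SD, n = 4 each). The log2 fold change was -0.20 ± 0.10 (SE, edgeR adjusted p = 0.605), and the libraries overlapped. In the pituitary it averaged 2.89 ± 0.888 FPKM in caged ducks and 2.08 ± 0.660 FPKM in floor-water ducks, a log2 fold change of 0.56 ± 0.26 with overlapping libraries, given without a test. The authors' deposited table gives folds of 1.39 in pituitary and 0.899 in hypothalamus.

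The SLC5A3 gene lies wholly within the span of MRPS6, a mitochondrial ribosomal protein gene, on the same strand of the reference gene table. How the counting assigned reads to either gene is not described in these sources, so the split between them is uncertain. MRPS6 averaged 53.5 FPKM in caged pituitary, 36.7 in floor-water pituitary, 35.9 in caged hypothalamus and 29.1 in floor-water hypothalamus. Between tissues it went the other way from SLC5A3: MRPS6 rose in pituitary relative to hypothalamus by 0.91 on the log2 scale in caged ducks (edgeR adjusted p = 0.00195) and by 0.56 in floor-water ducks (edgeR adjusted p = 0.0091). Between housing groups MRPS6 had a log2 fold change of 0.59 ± 0.18 in pituitary (unadjusted p = 0.00883, edgeR adjusted p = 1), close to the 0.56 of SLC5A3. In hypothalamus it was 0.26 ± 0.12 (edgeR adjusted p = 0.565). The caged pituitary libraries of MRPS6, at 40.1 to 64.4 FPKM, all lay above the floor-water ones, at 32.0 to 39.8 FPKM. How many genes did so in FPKM was not counted. On counts scaled by edgeR 1.34% of 15582 genes did, and whether MRPS6 did on that scale is not given here. The part of MRPS6 reads in the SLC5A3 values was not tested.

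SLC6A6, the sodium and chloride dependent taurine transporter, had group means between 12.8 and 18.5 FPKM. It had 18.3, 14.6, 16.4 and 9.96 FPKM in caged pituitary and 15.7, 22.9, 16.8 and 18.6 FPKM in floor-water pituitary, against 11.9, 14.1, 11.7 and 15.4 FPKM in caged hypothalamus and 11.1, 10.1, 11.3 and 18.6 FPKM in floor-water hypothalamus (libraries 1 to 4). Caged pituitary 4 was the lowest of all 16 libraries, floor-water hypothalamus 4 stood well above the rest of its group, and each pair of groups next to each other in mean overlapped. The log2 fold change of caged over floor-water was 0.01 ± 0.20 in hypothalamus (edgeR adjusted p = 0.99) and, as a description, -0.25 ± 0.20 in pituitary. SLC6A6 rose in floor-water pituitary relative to floor-water hypothalamus by 0.75 ± 0.21 on the log2 scale (1.68-fold, edgeR adjusted p = 0.012), although the libraries overlapped. In that comparison 28.5% of all genes were called higher in pituitary. In caged ducks the same comparison gave 0.50 ± 0.19 and missed the threshold (edgeR adjusted p = 0.0559). It passed when either caged pituitary 4 (0.61, edgeR adjusted p = 0.0113) or caged hypothalamus 4 (0.59, edgeR adjusted p = 0.0458) was left out.

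Of the aldose reductases, which reduce glucose to sorbitol, 5 loci carry a matching description in the deposited table. They were chosen after the table was read. LOC113839620 (aldose reductase-like) was far more abundant than the 4 genes listed by name, with 167, 214, 188 and 224 FPKM in caged pituitary and 211, 221, 251 and 230 FPKM in floor-water pituitary, against 227, 260, 259 and 277 FPKM in caged hypothalamus and 271, 271, 308 and 314 FPKM in floor-water hypothalamus (libraries 1 to 4). In both tissues the caged mean was below the floor-water mean, and the libraries overlapped. The log2 fold change of caged over floor-water was -0.23 ± 0.09 in hypothalamus (unadjusted p = 0.0355, edgeR adjusted p = 0.504) and -0.16 ± 0.18 in pituitary (edgeR adjusted p = 1). Between tissues LOC113839620 had log2 fold changes of pituitary over hypothalamus of -0.11 ± 0.16 in floor-water ducks (edgeR adjusted p = 0.599) and -0.02 ± 0.13 in caged ducks (edgeR adjusted p = 0.888). These fold changes are on counts scaled by edgeR, on which the tissues lie closer together for this locus than in FPKM.

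LOC113839621, also described as aldose reductase-like, had 17.6, 30.6, 24.5 and 35.1 FPKM in caged pituitary and 31.4, 35.7, 35.1 and 36.9 FPKM in floor-water pituitary, against 26.2, 60.5, 58.1 and 58.4 FPKM in caged hypothalamus and 52.6, 48.6, 46.3 and 65.8 FPKM in floor-water hypothalamus. Caged library 1 was the lowest of its group in each tissue. Its log2 fold changes of caged over floor-water were -0.31 ± 0.22 in pituitary and -0.12 ± 0.25 in hypothalamus, and neither passed (edgeR adjusted p = 1 and 0.925). Together LOC113839620 and LOC113839621 held at least 92.8% of the summed FPKM of the 5 loci in every library. LOC101804508, described as aldo-keto reductase family 1 member B10, rose in pituitary relative to hypothalamus by 3.14 ± 0.31 on the log2 scale in floor-water ducks (edgeR adjusted p = 3.68e-05) and by 2.63 ± 0.72 in caged ducks (edgeR adjusted p = 0.0128), at 1.44 to 14.9 FPKM in pituitary and 0.423 to 1.39 FPKM in hypothalamus. The 2 remaining loci, LOC101803476 and LOC101803673, were at or under 5.81 and 0.367 FPKM. These 5 are related sequences, and reads may have been split between them.

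AQP1, the water channel, gave the largest housing fold change of the 4 genes listed by name, with fold changes of opposite sign in pituitary and hypothalamus. It had 2.07, 1.09, 1.79 and 1.34 FPKM in caged pituitary and 17.2, 18.4, 0.947 and 1.88 FPKM in floor-water pituitary (libraries 1 to 4). Floor-water libraries 1 and 2 stood far above all the others, and floor-water libraries 3 and 4 lay within or below the caged range. The means were 1.57 ± 0.440 FPKM in caged pituitary and 9.61 ± 9.48 FPKM in floor-water pituitary (SD, n = 4 each). The log2 fold change of caged over floor-water was -2.42 ± 0.79 (SE), given without a test, and 0.11 without floor-water pituitary 1 and 2. These are the libraries with 319 and 324 FPKM of fibroblast and mural cell markers, against 98.2, 153, 67.7 and 66.3 FPKM in caged pituitary. Endothelial markers (9 genes) summed to 46.6 to 85.2 FPKM in caged pituitary and were 69.8 and 89.1 FPKM in floor-water pituitary 1 and 2. Their part in the AQP1 value was not tested.

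In the hypothalamus AQP1 had 6.61, 4.83, 5.89 and 2.56 FPKM in caged libraries 1 to 4, against 2.87, 2.10, 1.34 and 1.48 FPKM in floor-water libraries 1 to 4. The groups overlapped through caged library 4 and floor-water library 1 alone. AQP1 averaged 4.97 ± 1.77 FPKM in caged hypothalamus and 1.95 ± 0.701 FPKM in floor-water hypothalamus (SD, n = 4 each), a log2 fold change of 1.3 ± 0.34 (2.47-fold, unadjusted p = 0.00375). Adjusted over all genes it did not pass with edgeR (adjusted p = 0.375) and did pass with DESeq2 (log2 fold change 1.29, adjusted p = 0.0209), which called 1.49% of genes in this contrast. The authors' deposited table gives a fold of 2.55, a p-value of 0.000768 and a q-value of 0.0638. It was 1.13 to 1.53 with single libraries left out and 1.61 without caged hypothalamus 2 and 4. The fibroblast and mural cell markers summed to 34.6, 52.4, 59.8 and 43.2 FPKM in caged hypothalamus libraries 1 to 4. In floor-water hypothalamus they were lower, at 25.9 to 31.6 FPKM. Caged library 1 had the highest AQP1 level of its group and the lowest of these marker sums. The endothelial markers overlapped, at 63.6 to 67.1 FPKM in caged hypothalamus and 60.4 to 68.2 FPKM in floor-water hypothalamus. Choroid plexus and ependymal markers summed to 689, 20561, 157 and 35.9 FPKM in caged hypothalamus libraries 1 to 4. In floor-water hypothalamus libraries 1 to 4 they summed to 68.8, 132, 51.2 and 51.5 FPKM. The part of any of these markers in the AQP1 result was not tested, nor was the difference between the tissues.

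Between tissues AQP1 had fold changes of opposite sign in caged and floor-water ducks. These come from the same 16 libraries as its housing fold changes, so they are not a separate finding. They also share pituitary libraries with the comparison that chose the set. In caged ducks AQP1 fell in pituitary relative to hypothalamus, with a log2 fold change of -1.31 ± 0.34 (edgeR adjusted p = 0.00981). That call was lost when all 16 libraries shared 1 estimate of the spread (edgeR adjusted p = 0.0967). In floor-water ducks it rose in pituitary by 2.39 ± 0.81 (edgeR adjusted p = 0.0297), but this rested on floor-water pituitary 1 and 2. Without them the log2 fold change was -0.14 (edgeR adjusted p = 0.811). The lowest AQP1 count of all was 168 in floor-water pituitary 3 (exact Poisson 95% interval 144 to 195, counting error only), which is small beside the spread between libraries.

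**Figure D2:**
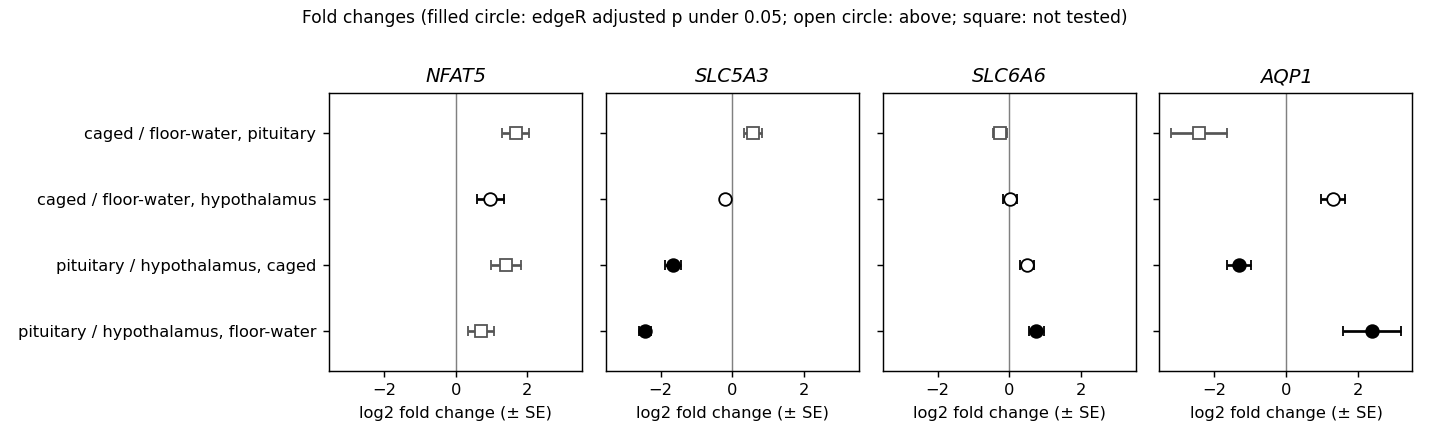
Log2 fold changes with standard errors of NFAT5, SLC5A3, SLC6A6 and AQP1 in the 2 housing comparisons (caged over floor-water) and the 2 tissue comparisons (pituitary over hypothalamus), from fits of 8 libraries each. Filled circles passed an edgeR adjusted p of 0.05, open circles did not, and squares mark values given without a test: the pituitary housing comparison, and NFAT5 in all but the hypothalamus housing comparison. SLC5A3 lies at -1.66 and -2.44 between tissues and at 0.56 and -0.20 between housing groups, whereas AQP1 lies at -2.42 in pituitary and 1.3 in hypothalamus between housing groups.

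**Figure D3:**
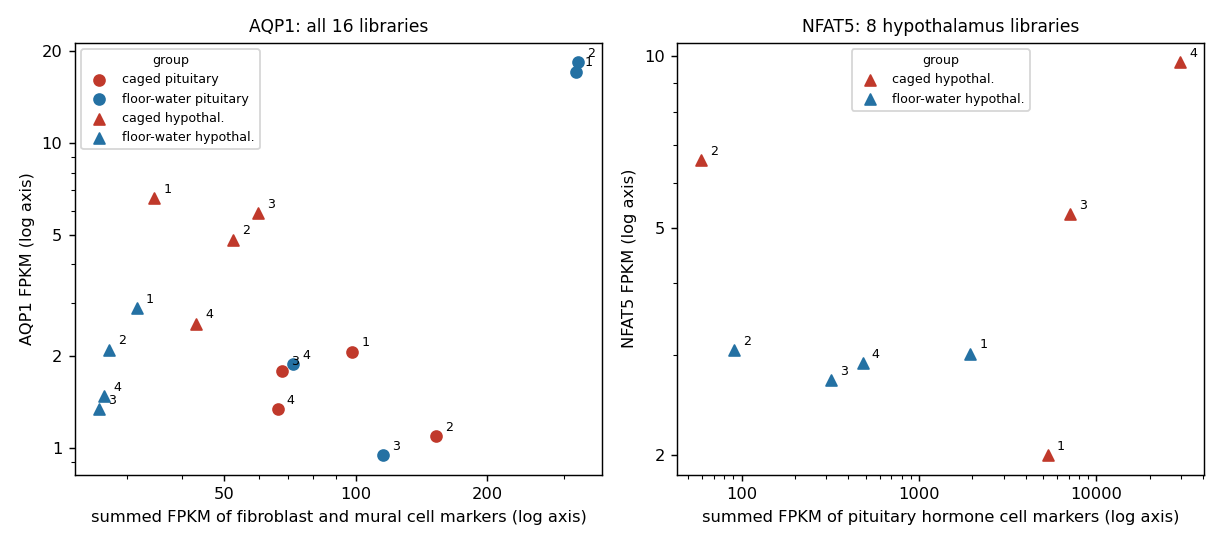
Left, AQP1 FPKM against the summed FPKM of 6 fibroblast and mural cell markers in all 16 libraries. Right, NFAT5 FPKM against the summed FPKM of 9 pituitary hormone cell markers in the 8 hypothalamus libraries. All axes are logarithmic, and numbers are library numbers. Floor-water pituitary 1 and 2 lie apart at 319 and 324 FPKM of markers with 17.2 and 18.4 FPKM of AQP1, and caged hypothalamus 2 has 6.58 FPKM of NFAT5 at a marker sum of 59.3 FPKM.

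Among the 13 loci described as aquaporins, another channel had a higher mean than AQP1 in every group. AQP4, the water channel of astrocyte end-feet, averaged 102 FPKM in caged hypothalamus, against 103 FPKM in floor-water hypothalamus. It fell in pituitary relative to hypothalamus, with log2 fold changes of -4.58 in caged ducks (edgeR adjusted p = 0.00101) and -4.12 in floor-water ducks (edgeR adjusted p = 0.000237). AQP4 did not pass between housing groups, with log2 fold changes of -0.52 ± 0.78 in pituitary and -0.06 ± 0.18 in hypothalamus. AQP3, a glycerol-permeable water channel, averaged 13.5 FPKM in caged pituitary and 19.0 FPKM in floor-water pituitary, against 4.68 FPKM in caged hypothalamus and 3.80 FPKM in floor-water hypothalamus. AQP9 lay between 3.81 and 5.57 FPKM in the mean of every group. Of the 12 aquaporins listed besides AQP1, 8 were in the table. In pituitary 7 of them were tested and in hypothalamus 5, and edgeR called 0 in either housing comparison. At an unadjusted p under 0.05 there were also 0, beside 4.3% of all genes in pituitary and 9.3% in hypothalamus.

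The wider osmotic pathway was read from 6 lists of 111 genes, of which 76 were in the table. In the pituitary housing comparison 72 were tested and 0 were called by edgeR, which called 0% of all 15582 genes there; at an unadjusted p under 0.05 there were 4 listed genes, and 670 (4.3%) of all genes, and DESeq2 called 38 (0.244%) of all genes. The listed genes had 37 log2 fold changes above 0 and 35 below, with a median of 0.0079, beside -0.0072 over all genes. In the hypothalamus 70 were tested, 0 were called by edgeR, 7 had an unadjusted p under 0.05 (9.3% of all genes did), and DESeq2 called 2, OXTR and NPR3 (1.49% of all genes). There 37 lay above 0 and 33 below, with a median of 0.0087, beside 0.0043 over all genes.

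The osmolyte and tonicity response list (17 tested) holds genes of osmolyte transport and synthesis, and others such as the kinase SGK1 and the chaperone HSPA4L. It had 8 fold changes above 0 and 9 below in pituitary (median -0.01) and 6 above and 11 below in hypothalamus (median -0.04). At an unadjusted p under 0.05 there were 2 in pituitary and 0 in hypothalamus, beside 4.3% and 9.3% of all genes. SLC6A12, the betaine transporter, had log2 fold changes of 0.60 ± 0.73 in pituitary and 0.72 ± 0.53 in hypothalamus. SLC5A11, a second inositol cotransporter, had -1.40 ± 0.74 in pituitary and 0.09 ± 0.24 in hypothalamus. ISYNA1 and IMPA1, which make and release inositol, had log2 fold changes between -0.12 and -0.01 in both tissues. SORD, which turns sorbitol into fructose, had 14.6, 11.9, 14.2 and 19.4 FPKM in caged pituitary, against 21, 23.5, 23.7 and 19.9 FPKM in floor-water pituitary. In FPKM all 4 caged libraries lay below all 4 floor-water libraries, the nearest at 19.4 against 19.9 FPKM. The share of all genes that did so in FPKM was not counted. On scaled counts the SORD groups overlapped. Its log2 fold change was -0.49 ± 0.20 (edgeR adjusted p = 1). CDO1, on the path from cysteine to taurine, had -0.35 ± 0.16 in pituitary. SLC6A8, the creatine transporter, and SLC38A2, an amino acid transporter, had -0.31 ± 0.15 and -0.34 ± 0.16 in hypothalamus (edgeR adjusted p = 0.559 for both).

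Of the genes on this osmolyte and tonicity list, 3 were called higher and 8 lower in caged pituitary relative to caged hypothalamus. In floor-water pituitary relative to floor-water hypothalamus 3 were called higher and 9 lower. SLC5A11 fell, with log2 fold changes of -4.71 in caged and -3.23 in floor-water ducks, as did HSPA4L, an osmotic stress chaperone, at -1.45 in caged and -1.73 in floor-water ducks. SLC6A8 was at -0.86 in caged and -1.47 in floor-water ducks, and SORD at -1.08 in caged and -0.73 in floor-water ducks. SGK1, a kinase that responds to cell volume and steroid hormones, rose, with 1.21 in caged and 0.65 in floor-water ducks. Over all genes, 27.3% were called higher and 26.8% lower in pituitary in caged ducks, and 28.5% higher and 27.8% lower in floor-water ducks.

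Kinases and factors upstream of NFAT5 had 14 members tested. In pituitary 10 lay above 0 and 4 below, with a median of 0.14, beside 7628 above and 7954 below over all genes. In hypothalamus 7 lay above 0 and 7 below, with a median of 0.04. In either tissue edgeR called 0 of them, and 1 had an unadjusted p under 0.05. Over all genes 4.3% did in pituitary and 9.3% in hypothalamus. OXSR1, a kinase that relays WNK signals to ion carriers, had 12.1, 13.6, 13.6 and 10.7 FPKM in caged pituitary, against 11.8, 10.1, 7.23 and 10.7 FPKM in floor-water pituitary. On scaled counts its 4 caged libraries were above its 4 floor-water libraries, with a log2 fold change of 0.40 ± 0.15 (unadjusted p = 0.0202, edgeR adjusted p = 1). In that comparison 1.34% of 15582 genes had every caged library above every floor-water library, and 3 of the 14 upstream genes did, OXSR1 among them. In the hypothalamus housing comparison 2 of the 14 did, beside 3.56% of all genes. WNK1 had -0.11 ± 0.15, and STK39 0.02 ± 0.26, in the pituitary housing comparison. AKAP13, which in mammalian lymphocytes helps induce NFAT5, had -0.39 ± 0.46 in pituitary and 0.37 ± 0.19 in hypothalamus. STK39 fell in pituitary relative to hypothalamus, with log2 fold changes of -1.85 in caged and -2.16 in floor-water ducks, and so did WNK1, at -0.74 in caged and -0.80 in floor-water ducks. SGK1, from the osmolyte and tonicity list, had 69.4, 132, 72.9 and 57.6 FPKM in caged pituitary and 69.8, 59.2, 36.3 and 46.6 FPKM in floor-water pituitary. Its log2 fold change was 0.72 ± 0.25 (unadjusted p = 0.0154, edgeR adjusted p = 1), and caged library 2 was the highest.

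NFATC1, NFATC2 and NFATC3 are calcium-regulated relatives of NFAT5. Their log2 fold changes of caged over floor-water in pituitary were -0.57 ± 0.66, 0.09 ± 0.24 and -0.38 ± 0.24. In hypothalamus they were -0.25 ± 0.21, 0.30 ± 0.26 and 0.28 ± 0.12, and none passed the threshold in either tissue. NFAT5 was chosen for its level in caged pituitary, so its value there cannot be set against those of its relatives. In the volume and ion carrier list (15 tested), LRRC8A, the essential subunit of the volume-regulated anion channel, had 0.10 ± 0.33 in pituitary and -0.10 ± 0.12 in hypothalamus. SLC12A2, a sodium, potassium and chloride cotransporter, had 0.03 ± 0.19 in pituitary and -0.27 ± 0.24 in hypothalamus. Relative to hypothalamus LRRC8A fell in pituitary, with -1.42 in caged and -1.63 in floor-water ducks, and SLC12A2 fell, with -2.30 in caged and -2.62 in floor-water ducks.

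Of the receptors for water and salt hormones, NPR3, the clearance receptor for natriuretic peptides, had 12.0, 3.54, 31.2 and 35.7 FPKM in caged pituitary and 9.43, 8.21, 5.54 and 5.12 FPKM in floor-water pituitary. Caged pituitary 2 was the lowest of all 8 and the other caged libraries were the highest. Its log2 fold change was 1.64 ± 0.58 in pituitary (unadjusted p = 0.0178, edgeR adjusted p = 1). In hypothalamus NPR3 had 2.83, 2.99, 4.80 and 13.0 FPKM in caged ducks and 2.85, 1.86, 1.72 and 1.91 FPKM in floor-water ducks, with a log2 fold change of 1.45 ± 0.47 (edgeR adjusted p = 0.422, DESeq2 adjusted p = 0.0449). It was 0.71 without caged hypothalamus 4, the library with the highest pituitary marker sum. NPR3 rose in pituitary relative to hypothalamus in both housing groups (log2 fold changes of 2.15 in caged and 1.96 in floor-water ducks, edgeR adjusted p = 0.0372 and 6.68e-05). The caged libraries overlapped, and the caged call was kept in 9 and lost in 7 of the alternatives run. The floor-water call held in all 17. The part of pituitary RNA in the NPR3 value of the hypothalamus was not tested.

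OXTR, the receptor for mesotocin in birds, had 0.918, 3.72, 1.66 and 1.48 FPKM in caged hypothalamus and 0.539, 0.529, 0.505 and 0.828 FPKM in floor-water hypothalamus, with no overlap. Its log2 fold change was 1.65 ± 0.44 (edgeR adjusted p = 0.375, DESeq2 adjusted p = 0.0343), and 1.11 without caged hypothalamus 2, the library with 20561 FPKM of choroid plexus and ependymal markers. Fibroblast and mural cell markers also did not overlap between these groups, at 34.6 to 59.8 FPKM in caged hypothalamus and 25.9 to 31.6 FPKM in floor-water hypothalamus. The part of either in the OXTR value was not tested. In that contrast 3.56% of all genes had every caged library above every floor-water library. AVPR1B, a vasotocin receptor of pituitary cells, had 9.0, 0.42, 23.3 and 55.7 FPKM in caged hypothalamus and 3.18, 0.186, 0.527 and 0.976 FPKM in floor-water hypothalamus. Its log2 fold change of 4.15 ± 1.27 (edgeR adjusted p = 0.401) became 1.16 with the pituitary marker sum as a covariate, and its order across the caged libraries was that of the marker sums, 5324, 59.3, 7135 and 29785 FPKM. The part of pituitary RNA in the AVPR1B value was not tested. NR3C2, the mineralocorticoid receptor, had -0.30 ± 0.12 in hypothalamus (unadjusted p = 0.0299, edgeR adjusted p = 0.49). SCNN1B, a subunit of the epithelial sodium channel, had -0.36 ± 0.16 in pituitary (unadjusted p = 0.0537, edgeR adjusted p = 1). Its caged pituitary libraries, at 6.52 to 8.24 FPKM, all lay below its floor-water libraries, at 9.17 to 10.2 FPKM, and also on scaled counts. The share of all genes that were lower in every caged pituitary library is not given here.

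**Figure D4:**
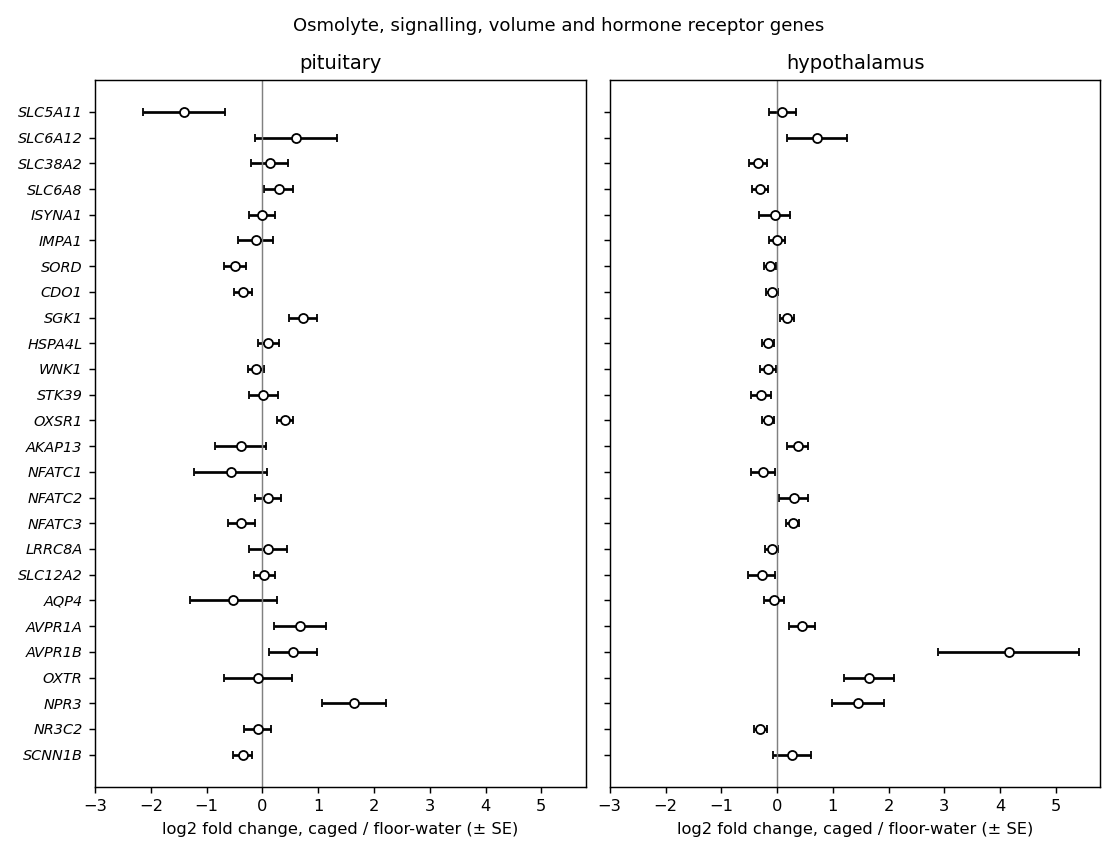
Log2 fold changes of caged over floor-water with standard errors for 26 named pathway genes in pituitary (left) and hypothalamus (right). None passed an edgeR adjusted p of 0.05. In hypothalamus AVPR1B lies at 4.15 ± 1.27, OXTR at 1.65 ± 0.44 and NPR3 at 1.45 ± 0.47, and in pituitary NPR3 lies at 1.64 ± 0.58.

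The antidiuretic hormone itself is listed by locus number. LOC113843450, described as vasotocin-neurophysin, had 0.782, 25, 0.722 and 0.362 FPKM in caged pituitary and 1.24, 1.32, 0.688 and 8.65 FPKM in floor-water pituitary, against 260, 7.05, 653 and 125 FPKM in caged hypothalamus and 702, 155, 130 and 5.86 FPKM in floor-water hypothalamus (libraries 1 to 4). Within each hypothalamus group the libraries differed far more than the groups did. The log2 fold change of caged over floor-water in hypothalamus was 0.01 ± 1.27 (edgeR adjusted p = 0.998), and a difference was not detectable at this spread. LOC101790900, described as neurophysin 1, followed a like pattern, with 137, 1.57, 325 and 80.3 FPKM in caged hypothalamus and 217, 18.2, 62.6 and 2.07 FPKM in floor-water hypothalamus. LOC113843450 fell in pituitary relative to hypothalamus, with log2 fold changes of -4.96 in caged ducks (edgeR adjusted p = 0.0314) and -6.16 in floor-water ducks (edgeR adjusted p = 0.00474). The libraries overlapped in both comparisons. The caged call was kept in 10 and lost in 6 of the alternatives run, and the floor-water call was kept in 16 and lost in 1.

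**Figure D5:**
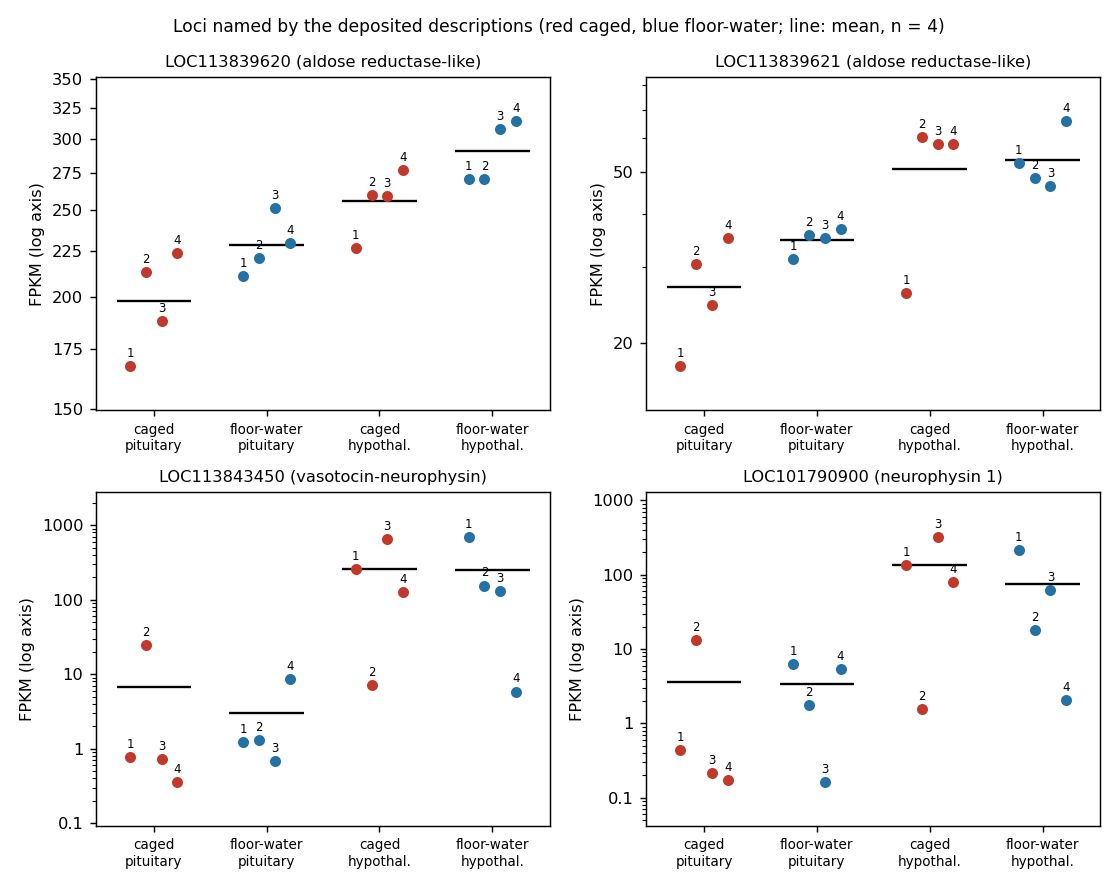
FPKM (log axis) of aldose reductase-like loci LOC113839620 and LOC113839621 and of neurohypophysial hormone loci LOC113843450 and LOC101790900 in each library, with library numbers and group means (n = 4). LOC113839620 stays between 167 and 314 FPKM in all 16 libraries, while LOC113843450 spans 0.362 to 702 FPKM.

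Across the 16 libraries, after each tissue's mean was removed, the genes whose log2(CPM + 1) most resembled that of NFAT5 among 8904 genes were TMEM126A (Pearson r = 0.87), ZCRB1 (0.85), SEC11A (0.83), HP1BP3 (0.81) and ANXA6 (0.81). The libraries are shared by all these genes, and the values are a description. TMEM126A had 22.9, 23.1, 24.3 and 28.3 FPKM in caged pituitary, against 20.04, 14.8, 14.6 and 15.1 FPKM in floor-water pituitary. It was picked for its likeness to NFAT5 over these same libraries, so that pattern is part of the choice. The osmolyte transporters did not resemble NFAT5 in this measure, with r = 0.18 for SLC5A3 and -0.04 for SLC6A6. For AQP1 and NFAT5 r was -0.49. These values include the pituitary libraries that chose NFAT5, among them floor-water pituitary 1 and 2, with AQP1 at 17.2 and 18.4 FPKM. In hypothalamus NFAT5 and AQP1 both had the higher mean in caged ducks, and r within a tissue is not given here. AQP1 most resembled COL8A1 (0.91), PANK4 (0.89), NFATC3 (0.89), MYH11 (0.89) and PRELP (0.88). COL8A1 encodes a collagen, MYH11 the smooth muscle myosin and PRELP a matrix protein. PANK4 is described as a pantothenate kinase, and NFATC3 is a calcium-regulated relative of NFAT5. MYH11 had 8.85 and 11.3 FPKM in floor-water pituitary 1 and 2, against 0.231 and 0.188 FPKM in floor-water pituitary 3 and 4. It was picked for its likeness to AQP1 over these same libraries, so that split is part of the choice.

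Neighbouring genes of NFAT5 in the reference gene table were read for the same contrasts. Of the 7 within 30000 bases, log2 fold changes of caged over floor-water in pituitary ran from -1.35 for NQO1, a quinone reductase, to 0.20 for CYB5B, an outer mitochondrial membrane cytochrome. In hypothalamus they ran from -0.26 to 0.34. None of the 7 overlaps NFAT5, and no gene overlaps AQP1 or SLC6A6.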

How the data were processed

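For 16 libraries the authors deposited whole-number read counts per gene, and FPKM, which the authors list at 0.0001 where a gene has no signal. Also deposited were the authors' own comparisons in each tissue: the fold (a ratio), its log2 value, and p-value and q-value columns. Tools listed in the submitters' processing notes are DESeq2, StringTie 1.3.4d, HISAT2 and cutadapt; the build is not given in the sources used here, nor are strand use and counting rules, so no gene positions are printed. Gene identifiers were matched to a reference gene table of a Pekin duck assembly for names and neighbours only (17816, 73.4%, matched), which gave 480 locus numbers a symbol, SGK1 among them. No sequences of the genes were used here.

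Comparisons of counts used edgeR 4.0.16 under R 4.3.3 (quasi-likelihood F test, TMM scaling, filterByExpr, Benjamini-Hochberg over all genes tested, threshold 0.05), with 8 libraries a comparison. Each standard error is the fold change divided by the root of its F statistic. DESeq2 1.42.0 was run as an alternative, as were limma 3.58.1 on log2(FPKM + 1) or log2(FPKM + 0.1), quantile and median ratio scaling, no filter, all 16 libraries in 1 fit, the replicate number as a block, marker covariates and libraries left out. The test scripts were tested on simulated data. Libraries of a group were not duplicates (chi-square per degree of freedom 68.2 to 509). The genes and lists were chosen with earlier results of these data known. Named were the set itself, in each housing comparison the 3 listed genes with the smallest p each way whose mean reached 1 FPKM in some group, a fixed group of pathway genes, and the 5 genes most like NFAT5 by Pearson r at a mean CPM of at least 5 in both tissues; the described loci, MRPS6, AQP3, AQP9, the neighbours and the genes most like AQP1 were added after values were seen. AVP, AVPR2, OXT, TRPV4, CSAD and NFATC4 were not listed by symbol.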

Additional observations from a re-analysis of the deposited data

Results flagged for a closer look

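The gap between the highest or the lowest library and the nearest of the others, divided by the range of the group, was compared with Dixon's critical value in 138 groups of 4 libraries with a mean of at least 1 FPKM. It was past that value in 16, and chance alone flags about 1 in 20 groups. None of these was given an explanation or a test.

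NFAT5 in floor-water pituitary was set apart by library 3 at 6.72 FPKM, against 2.73 to 3.18 FPKM in the others (gap over range 0.888). SLC6A6 in floor-water hypothalamus was set apart by library 4 at 18.6 FPKM, against 10.1 to 11.3 FPKM (0.868). The same library was the lowest for NR3C2 at 3.90 FPKM, against 4.55 to 4.68 (0.83), and the highest for SLC5A11 at 21.3 FPKM, against 10.7 to 12.2 (0.855). Caged hypothalamus 4 was apart for SORD at 34.5 FPKM, against 42.3 to 43.7 (0.84), for WNK1 at 25.5 FPKM, against 20.2 to 21 (0.861), and for SLC12A2 at 23.7 FPKM, against 15.2 to 15.6 (0.95). AKAP13 had 2.45 FPKM in floor-water hypothalamus 1, against 1.79 to 1.90 (0.838).

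Caged pituitary 2 was apart for AQP4 at 9.48 FPKM, against 0.8294 to 2.03 (0.861), and for the neurohypophysial hormone loci LOC113843450 at 25 FPKM, against 0.362 to 0.782 (0.983), LOC113843510 at 23.2 FPKM, against 0.368 to 1.05 (0.97), and LOC101790900 at 13.4 FPKM, against 0.174 to 0.441 (0.98). Floor-water pituitary 4 was apart for LOC113843450 at 8.65 FPKM, against 0.688 to 1.32 (0.921). Of the aldose reductase loci, LOC113839621 had 26.2 FPKM in caged hypothalamus 1, against 58.1 to 60.5 (0.93), and LOC101803476 had 5.40 FPKM in caged hypothalamus 1, with the others from the listed floor to 0.246 (0.954), and 5.81 FPKM in floor-water hypothalamus 2, with the others up to 0.411 (0.929).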

How the results depend on the processing

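Of 414 values recomputed for the set and for the counts of called genes, 382 were kept. A fold change was kept if its direction and side of the threshold stayed. In the pituitary housing comparison it was kept if it moved by less than the spread between libraries. A count of called genes was kept if it was equal to the main count or within a fixed ratio of it. The rest follow, and the cause of each was not tested. In the hypothalamus housing comparison edgeR called 0 genes, against 234 with DESeq2 (2 of the pathway lists), 1 with all 16 libraries in 1 fit, 1 with limma on log2(FPKM + 0.1), 6 without caged hypothalamus 2 and 4, and 0 to 1 with single libraries left out. In the pituitary it called 0, against 38 with DESeq2, 3 with all 16 libraries, 1 without floor-water pituitary 1 and 2, and 0 to 2 with single libraries left out (2 without floor-water pituitary 3). SLC6A6 in hypothalamus, near 0, ran from -0.066 to 0.25 with single libraries left out and was -0.17 without caged hypothalamus 2 and 4. AQP1 in hypothalamus passed with DESeq2 (1.29). AQP1 in pituitary was 0.11 without floor-water pituitary 1 and 2. Between tissues in floor-water ducks, AQP1 missed the threshold with limma on log2(FPKM + 1) (1.21), log2(FPKM + 0.1) (1.37) and quantile scaling (1.62), ran from 1.88 to 2.75 with single libraries left out, 5 of which lost the call, and was -0.14 without floor-water pituitary 1 and 2. NFAT5 there, given without a test, was 1.09 without those libraries. In caged ducks AQP1 missed it with all 16 libraries (-1.33), and SLC6A6 ran from 0.33 to 0.61. Scaling moved the median of all genes in caged ducks between tissues to -0.13 and -0.25 with limma on log2(FPKM + 1) and log2(FPKM + 0.1), and to 0.19 with quantile scaling.

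Groups share the numbers 1 to 4, but the labels do not say that a number marks a bird. Same-numbered libraries correlated by -0.02 to 0.15 in the hypothalamus housing comparison, -0.10 to 0.21 in the pituitary, 0.03 to 0.20 between tissues in floor-water ducks and 0.09 to 0.19 in caged ducks. Each floor-water pituitary library correlated best with the floor-water hypothalamus library of its own number, a hint from the data only. In caged ducks pituitary libraries 1, 3 and 4 did so, and library 2 correlated best with hypothalamus library 3. The best match of each hypothalamus library was not computed. With the replicate number as a block, AQP1 between tissues in floor-water ducks was 1.62 (edgeR adjusted p = 0.0585), and the block changed no other call of the set. Of 2484 values for the other named genes and loci, 2316 kept their call or, without a call, moved by less than the spread. A call was lost in 76 and gained in 26, and 66 without a call moved by more than the spread. Of the called values, 0 changed sign. Changes of sign among values without a call were not counted, and some did change. ISYNA1 in hypothalamus ran from -0.23 to 0.18 with single libraries left out.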
